A study of Mus musculus with 10 samples.

Results

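The question addressed here was how pretreatment with Neurotropin (NTP) changed gene expression in hepatocytes given linoleic acid (LA). The libraries were chosen by their labels alone, and they were the 2 LA+NTP and the 2 LA libraries, 4 of the 10 libraries of the series. In these libraries 14097 genes were tested, of the 18055 gene IDs listed in any library. Primary hepatocytes, the parenchymal cells of the liver, came from the livers of wild-type C57BL/6 mice, released by collagenase perfusion and plated on collagen I, at first in medium with serum and, by the study's methods, in serum-free medium before treatment. LA+NTP cells were kept for 1 h with NTP at 0.4 NU/mL and then for 24 h with 12 µM LA, and LA cells received 12 µM LA for 24 h without NTP. Vehicle cells, and cells given 200 µM palmitic acid (PA) with or without the same NTP pretreatment, gave 2 libraries each and serve as context. There was no group given NTP without a fatty acid, and all 4 compared libraries carried LA.

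NTP, a drug against pain, holds the non-protein constituents of rabbit skin inoculated with vaccinia virus. LA is a polyunsaturated omega-6 fatty acid. Hepatocytes take up free fatty acids (FFAs), activate them to acyl-CoA, oxidize them in mitochondria or store them as triglyceride in lipid droplets. The electrons released by oxidation pass through respiratory complexes I to IV, and ATP synthase uses the resulting proton gradient. PGC-1α and PGC-1β, encoded by Ppargc1a and Ppargc1b, are coactivators that drive mitochondrial biogenesis, and AMPK is the kinase that senses a low energy state and promotes oxidation.

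The 4 libraries held 23696170 to 60046937 expected counts. Between the 2 libraries of a group the SD of the log2 difference over 8890 genes was 0.138 for LA and 0.115 for LA+NTP, and between the groups it was 0.456 to 0.473. The 12 hepatocyte markers summed to 7838 and 7849 FPKM in LA and to 9340.5 and 8911 FPKM in LA+NTP, with Alb, the gene of serum albumin, at 2467 to 2819 FPKM. Cps1, a urea cycle enzyme and hepatocyte marker, was low at 3.39 to 4.61 FPKM. Nothing in the labels says that the 2 libraries of a group came from separate animals, so p-values measure the spread between libraries only.

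With NTP, 1651 genes were raised (11.7% of those tested) and 1067 were lowered (7.57%) where a change of 1.5-fold or more and a Benjamini-Hochberg adjusted p under 0.05 in edgeR's quasi-likelihood test were required. The FPKM values of the 2 groups did not overlap for any of them. This follows largely from the call on the same 4 libraries and adds no separate support. The median log2 fold change was 0.83 among the raised genes and -0.72 among the lowered ones. Changes of at least 2-fold were found for 483 raised and 165 lowered genes, and changes of at least 4-fold for 85 and 54.

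The direction of the change followed the base composition of the transcripts. The median transcript GC content was 57.3% in raised genes, 42.1% in lowered genes and 50.1% in all genes tested. Across 14020 genes, Spearman's rho between the log2 difference and GC content was 0.676, a description over genes that share the same 4 libraries. In transcripts of 60 to 65% GC, 53.7% of the genes were raised and 0.351% lowered, whereas at 35 to 40% GC 1.91% were raised and 43.9% lowered. The GC content of promoters showed little of this, with a rho of 0.052 over 11095 genes, and transcript length gave -0.092.

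**Figure D1:**
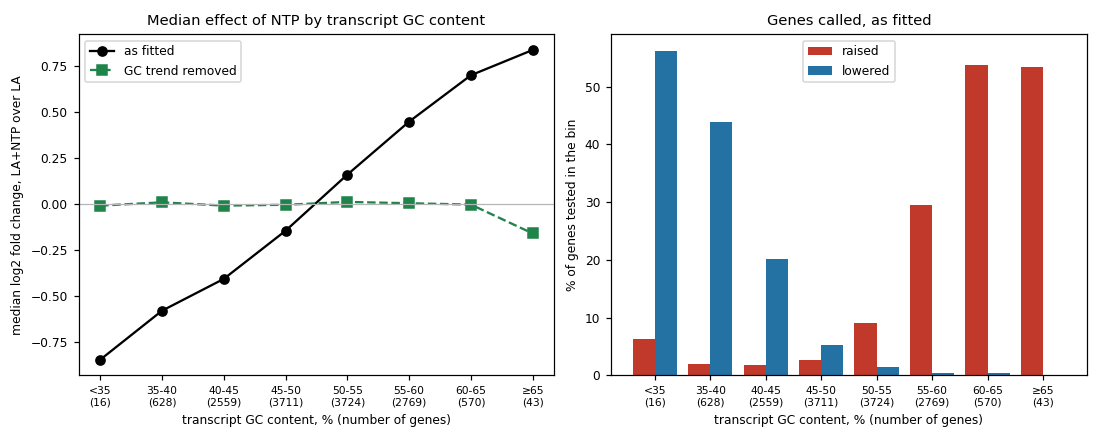
Left, median log2 fold change of LA+NTP over LA (y axis) in bins of transcript GC content (x axis, %, number of genes in parentheses), as fitted and with the GC trend removed. Right, percent of the genes in each bin that were raised or lowered as fitted. The medians climb from -0.58 at 35 to 40% GC to 0.70 at 60 to 65%, and without the trend lie near 0 except above 65%, at -0.16. The lowest and highest bins hold only 16 and 43 genes.

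Because of this trend every comparison was made a second time after a smooth GC trend had been removed from each library. Then 520 genes were raised (3.69% of those tested) and 283 lowered (2.01%). Of the genes raised as fitted, 429 kept their call (26%), and of the lowered genes 164 did (15.4%), while no gene changed to the opposite call. In what follows the 2 fits are given side by side, and the counts of a gene list are read against these shares of all genes. The kept genes had median GC contents of 51.7% and 49.4%, against 58.1% and 41.4% for those lost. A further 91 raised and 119 lowered genes were called only without the trend.

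**Figure D2:**
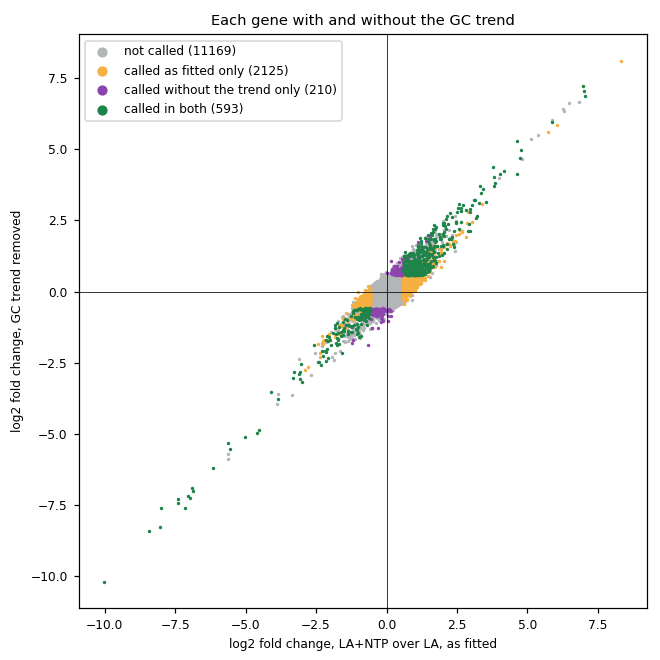
Each point is a gene, with the log2 fold change of LA+NTP over LA as fitted (x axis) and after removal of the GC trend (y axis). Called in both were 593 genes and called only as fitted 2125, and 210 were called only without the trend. A lost call does not mean that no difference was left.

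The trend was seen in whole libraries. Spearman's rho between GC content and a gene's deviation from its mean over the 10 libraries was -0.566 and -0.560 in LA, and 0.568 and 0.527 in LA+NTP. The PA libraries lay on the LA side with -0.467 and -0.477. On the other side lay Vehicle, with 0.420 and 0.385, and PA+NTP, with 0.402 and 0.342. The labels give no batch, so a technical difference between libraries that runs along these groups cannot be told apart from NTP.

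The starts of 4 coding sequences are given as examples from both ends of the trend. These are the 2 richest and the 2 poorest in GC among the named genes with a mean of at least 10 FPKM whose call was lost with the trend. Their first 60 coding bases in GENCODE M21 are given 5′ to 3′ from the start codon, with G and C in capitals:
Jund: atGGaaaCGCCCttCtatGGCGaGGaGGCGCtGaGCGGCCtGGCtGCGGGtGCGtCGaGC
Bcl3: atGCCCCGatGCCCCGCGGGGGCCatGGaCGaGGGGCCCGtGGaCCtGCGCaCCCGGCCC
Psmc6: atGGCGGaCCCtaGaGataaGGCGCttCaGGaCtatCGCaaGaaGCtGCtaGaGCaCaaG
Yme1l1: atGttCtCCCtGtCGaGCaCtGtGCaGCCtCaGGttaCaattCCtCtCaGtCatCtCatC
The Jund and Bcl3 stretches held 41 and 48 G or C bases of 60, and those of Psmc6 and Yme1l1 held 32 and 30. Over the whole transcript the GC contents were 67.1%, 62.6%, 37% and 38.1%. Psmc6 and Yme1l1 were thus poor in GC over the whole transcript and not in the printed stretch, which held 53.3% and 50%. Jund, a transcription factor of the AP-1 family, measured 45.9 and 42.3 FPKM in the LA libraries and 76.9 and 73.2 FPKM in the LA+NTP libraries, a log2 difference of 0.73 ± 0.06 that became -0.26 ± 0.06 without the trend. Bcl3, a nuclear regulator of NF-κB, measured 24.5 and 26 FPKM in the LA libraries and 46.3 and 50.7 FPKM in the LA+NTP libraries, and its difference of 0.91 ± 0.07 became 0.14 ± 0.07. Psmc6, an ATPase of the proteasome, measured 148 and 149 FPKM in the LA libraries and 82.5 and 81.1 FPKM in the LA+NTP libraries, and its difference of -0.90 ± 0.06 became -0.24 ± 0.06. Yme1l1, a protease of the inner mitochondrial membrane, measured 58.3 and 55.3 FPKM in the LA libraries and 33.3 and 32.1 FPKM in the LA+NTP libraries, and its difference of -0.84 ± 0.06 became -0.22 ± 0.05. The 2 rich transcripts were raised and the 2 poor ones lowered as fitted. That all 4 were called as fitted and none without the trend was set by their choice.

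Other genes show both kinds of change in call. Camk2n2, an inhibitor of the kinase CaMKII, measured 1.08 and 0.46 FPKM in the LA libraries and 2.94 and 2.37 FPKM in the LA+NTP libraries, and its difference of 1.68 ± 0.31 became 0.85 ± 0.31 and was no longer called. Zfp979, a zinc finger gene with a GC content of 34.4%, measured 1.94 and 1.35 FPKM in the LA libraries and 0.82 and 0.65 FPKM in the LA+NTP libraries, and its difference of -1.23 ± 0.28 became -0.46 ± 0.28 and was no longer called. Csn3, which encodes κ-casein, measured 23.3 and 22 FPKM in the LA libraries and 25.7 and 29.6 FPKM in the LA+NTP libraries and was raised only without the trend, with 0.25 ± 0.14 as fitted and 0.90 ± 0.14 after its removal.

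The genes described next were taken from those called both with and without the trend and with a mean of at least 1 FPKM, as the 12 most raised and the 12 most lowered. Only genes whose FPKM values did not overlap between LA and LA+NTP were eligible. Npy1r, which encodes the Y1 receptor of neuropeptide Y, measured 0.88 and 0.87 FPKM in the LA libraries and 8.82 and 9.17 FPKM in the LA+NTP libraries. The difference was 3.32 ± 0.12 on the log2 scale (SE, n = 2 libraries a group, edgeR adjusted p = 4.5e-10) and 3.71 ± 0.12 without the trend, so both LA+NTP libraries lay far above both LA libraries. C86187 measured 0.60 and 0.56 FPKM in the LA libraries and 5.68 and 5.02 FPKM in the LA+NTP libraries, a difference of 3.15 ± 0.17. Its 2 LA+NTP values were further apart than those of Npy1r, and both lay above both LA values.

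The largest difference among the 12 raised genes was that of Cd8b1, which encodes the β chain of the CD8 coreceptor of T cells. Its values were 0.10 and 0.16 FPKM in the LA libraries and 3.56 and 3.58 FPKM in the LA+NTP libraries, a difference of 4.74 ± 0.29 (edgeR adjusted p = 5.8e-08). It was nearly off in LA. Other T cell genes did not rise with it, since Cd3e had no count in the 4 libraries, Cd8a stayed at 0.11 to 0.28 FPKM and Cd3d, at 0.65 and 0.47 FPKM in the LA libraries and 0.20 and 0.08 FPKM in the LA+NTP libraries, was lowered, though not called without LA replicate 1 (-1.88) or without LA+NTP replicate 2 (-1.48). Selplg, the P-selectin ligand, measured 0.39 and 0.11 FPKM in the LA libraries and 1.79 and 2.38 FPKM in the LA+NTP libraries, a difference of 2.92 ± 0.42. Phox2a, a homeodomain factor of autonomic neurons, measured 0.33 and 0.58 FPKM in the LA libraries and 1.7 and 2.98 FPKM in the LA+NTP libraries, a difference of 2.38 ± 0.34. Tctex1d4, of the Tctex1 dynein light chain family, had counts of 0, 4, 57 and 135 in the 2 LA and 2 LA+NTP libraries and a difference of 4.63 ± 0.66. Without LA replicate 2 no LA count of Tctex1d4 is left, and the fitted difference of 8.96 then has no meaning as a fold. Abhd11os, a long noncoding RNA, measured 0.25 and 0.26 FPKM in the LA libraries and 1.7 and 3.15 FPKM in the LA+NTP libraries, a difference of 3.2 ± 0.59. Ttc16 measured 0.63 and 0.61 FPKM in the LA libraries and 2.46 and 4.2 FPKM in the LA+NTP libraries, a difference of 2.39 ± 0.31, and Gdf1, a ligand of the TGF-β family, 0.77 and 0.45 FPKM in the LA libraries and 3.2 and 6.64 FPKM in the LA+NTP libraries, a difference of 2.95 ± 0.36. The 2 LA+NTP values of these last 3 genes were further apart than those of Npy1r. All 31-base words of Gdf1 occur in Cers1, so reads of the 2 cannot be separated, and exons of Tctex1d4, Abhd11os, C86187, Ttc16 and Phox2a overlap genes on the other strand.

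Among the 12 lowered genes with a symbol the most abundant was Mup1, a major urinary protein that carries pheromones and is made by hepatocytes. It measured 2166 and 2449.6 FPKM in the LA libraries and 676 and 609 FPKM in the LA+NTP libraries, a difference of -1.89 ± 0.08 (edgeR adjusted p = 4.3e-09) and -1.47 ± 0.09 without the trend. The Mup genes are near copies of each other, and 98.4% of the 31-base words of Mup1 occur in other genes, so the value may be shared among them. Cdnf, a neurotrophic factor resident in the endoplasmic reticulum, measured 12.3 and 13.7 FPKM in the LA libraries and 1.15 and 1.48 FPKM in the LA+NTP libraries, a difference of -3.32 ± 0.12 (edgeR adjusted p = 4.5e-10). Lrrc17, a leucine-rich repeat protein, measured 2.49 and 2.48 FPKM in the LA libraries and 0.08 and 0.04 FPKM in the LA+NTP libraries, a difference of -5.56 ± 0.41. Lrrc17 was nearly off in LA+NTP, while Cdnf stayed measurable. Omd, the matrix proteoglycan osteomodulin, measured 11.4 and 17.8 FPKM in the LA libraries and 2.48 and 2.55 FPKM in the LA+NTP libraries, a difference of -2.57 ± 0.23, and the lncRNA A330032B11Rik 5.08 and 5.92 FPKM in the LA libraries and 1.18 and 1.51 FPKM in the LA+NTP libraries, a difference of -2.05 ± 0.18. Exons of Lrrc17 and A330032B11Rik overlap genes on the other strand.

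Several of the 24 genes share much of their sequence with other genes, so that the counting could have split or moved their reads. Gm5177 measured 11 and 11.6 FPKM in the LA libraries and 0.26 and 0.22 FPKM in the LA+NTP libraries, a difference of -5.61 ± 0.13, with 10.7% of its 31-base words found elsewhere. Rpl34-ps1, a copy of Rpl34, measured 30.2 and 28 FPKM in the LA libraries and 0.58 and 1.14 FPKM in the LA+NTP libraries, a difference of -5.01 ± 0.24, with all of them found elsewhere. Rpl37rt, a retrotransposed copy of Rpl37, went the other way and measured 89.3 and 107 FPKM in the LA libraries and 509 and 589 FPKM in the LA+NTP libraries, a difference of 2.45 ± 0.30, with 51.7% shared. The shared part was 90.9% in Amd2, 82.9% in Gm13363, 82.2% in Gm12657, 76.2% in Ppp1r2-ps3 and the whole transcript in Tmem254c. Amd2, a copy of the gene of adenosylmethionine decarboxylase, had a difference of -3.02 ± 0.56, Gm13363 one of -2.14 ± 0.18 and Gm12657 one of -2.39 ± 0.34. Ppp1r2-ps3 had counts of 12.2, 0, 111.4 and 185.91 and a difference of 3.81 ± 0.53, and without LA replicate 1 no LA count is left and the fitted difference of 9.59 has no meaning as a fold. Tmem254c measured 62.4 and 18.9 FPKM in the LA libraries and 11.9 and 5.01 FPKM in the LA+NTP libraries, a difference of -2.45 ± 0.79 that was not called without LA replicate 1 (-1.33) or without LA+NTP replicate 2 (-1.85). The difference of Amd2 was -4.70 without LA+NTP replicate 1. The gene with ID 19791 measured 815 and 894 FPKM in the LA libraries and 181 and 187 FPKM in the LA+NTP libraries, a difference of -2.26 ± 0.11. No symbol and no GENCODE transcript were matched to it, so what kind of RNA it counts was not established. Over the LA and PA libraries it ranged from 815 to 1721 FPKM, and over the Vehicle and NTP libraries from 181 to 272 FPKM. It is not read as a response of a known gene.

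The other 6 libraries set these 24 genes in context. For all 12 raised genes, the 2 LA and 2 PA libraries lay below the Vehicle, PA+NTP and LA+NTP libraries, and for 11 of the 12 lowered genes they lay above, Tmem254c being the exception. The order of LA against LA+NTP was fixed by the choice of these genes. The share of all tested genes with the same order of libraries was not counted. Among all called genes, the Vehicle mean lay closer to LA+NTP than to LA for 1526 of 1651 raised genes. The same held for 964 of 1067 lowered genes. Vehicle lying on the side of LA+NTP is thus not particular to the 24. Npy1r stood at 7.97 and 8.41 FPKM in Vehicle, 1.16 and 1.48 FPKM in PA and 8.43 and 8.99 FPKM in PA+NTP. Cdnf stood at 0.98 and 0.90 FPKM in Vehicle, 11.2 and 12.1 FPKM in PA and 1.27 and 1.24 FPKM in PA+NTP. For these 2 genes the LA+NTP level was near that of Vehicle and the LA level near that of PA.

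**Figure D3:**
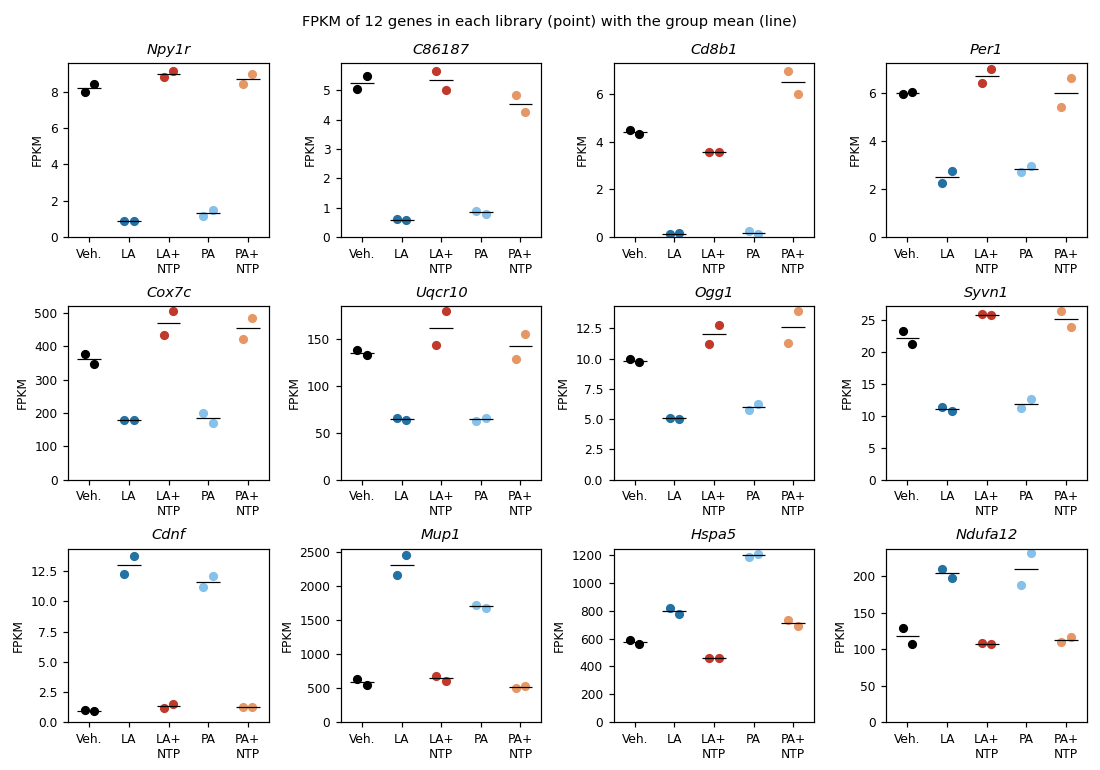
FPKM (y axis, linear from 0) of 12 genes in each library (points) with group means (lines), in Vehicle, LA, LA+NTP, PA and PA+NTP. In each panel the 4 LA and PA points lie on one side of the 6 points of Vehicle and the NTP groups, below them in the upper 8 panels and above them in the lower 4. All 12 genes were picked from those called between LA and LA+NTP.

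Promoters of the most changed genes are shown because members that move together may share short motifs near the start. RefSeq windows of 300 bases around the start (GRCm38.p6) existed for 11126 tested genes, and those of the first 2 raised and first 2 lowered genes that have one are given 5′ to 3′, with matches to the 7 motifs searched in capitals:
Tctex1d4 (chr4:117126563-117126862, plus strand): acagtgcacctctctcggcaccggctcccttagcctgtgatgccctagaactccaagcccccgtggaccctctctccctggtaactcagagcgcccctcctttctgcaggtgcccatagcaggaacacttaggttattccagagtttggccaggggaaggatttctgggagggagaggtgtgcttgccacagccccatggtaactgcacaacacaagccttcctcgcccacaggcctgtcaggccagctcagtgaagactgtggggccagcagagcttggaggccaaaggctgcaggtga
Npy1r (chr8:66697172-66697471, plus strand): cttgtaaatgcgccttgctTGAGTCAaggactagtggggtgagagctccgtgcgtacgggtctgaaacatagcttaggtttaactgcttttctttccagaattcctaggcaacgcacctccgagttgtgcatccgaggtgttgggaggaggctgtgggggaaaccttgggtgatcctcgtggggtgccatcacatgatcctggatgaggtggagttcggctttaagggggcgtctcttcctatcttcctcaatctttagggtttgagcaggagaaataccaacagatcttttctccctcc
Lrrc17 (chr5:21543277-21543576, plus strand): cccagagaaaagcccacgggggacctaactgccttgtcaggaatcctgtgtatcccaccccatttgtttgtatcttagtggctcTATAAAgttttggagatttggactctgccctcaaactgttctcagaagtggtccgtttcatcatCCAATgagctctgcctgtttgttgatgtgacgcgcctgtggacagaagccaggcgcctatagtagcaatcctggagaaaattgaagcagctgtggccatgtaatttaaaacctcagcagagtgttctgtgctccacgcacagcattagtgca
Cdnf (chr2:3512815-3513114, plus strand): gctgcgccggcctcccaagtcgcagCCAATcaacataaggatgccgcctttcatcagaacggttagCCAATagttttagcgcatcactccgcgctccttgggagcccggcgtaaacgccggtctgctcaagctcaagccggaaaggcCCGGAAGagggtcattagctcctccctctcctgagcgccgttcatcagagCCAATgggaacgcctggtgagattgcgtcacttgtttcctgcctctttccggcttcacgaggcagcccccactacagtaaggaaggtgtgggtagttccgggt
The motifs were the TATA box TATAAA, the NF-Y box CCAAT, the GC box GGGCGG, the E-box CACGTG, the AP-1 site TGACTCA, the ETS site CCGGAAG and the NRF1 site core GCATGCGC, each on both strands, and no motif contains another. The Tctex1d4 window held none and that of Npy1r 1 AP-1 site, read on the opposite strand, while Lrrc17 had 1 TATAAA and 1 CCAAT, and Cdnf 3 CCAAT and 1 CCGGAAG. Over all windows 39.1% held a CCAAT, against 36.1% of the raised and 43.5% of the lowered genes, and 61.7% held a GGGCGG, against 64.6% and 59.3%. TATAAA was present in 7.75% of all windows, 8.21% of the raised and 6.93% of the lowered. For genes called both ways the TATAAA shares were 11.2% of 330 raised and 9.35% of 107 lowered, and the GGGCGG shares 52.4% and 46.7%.

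In the respiratory chain a few subunits were raised. Cox7c, a small nuclear-encoded subunit of cytochrome c oxidase, measured 179 and 178 FPKM in the LA libraries and 434 and 505 FPKM in the LA+NTP libraries, a difference of 1.36 ± 0.10 (edgeR adjusted p = 1.7e-07) and of 1.56 ± 0.09 without the trend. Cox8a rose from 105 and 102 FPKM with LA to 221 and 229 FPKM with LA+NTP, and its difference of 1.08 ± 0.09 became 0.54 ± 0.09. Cox6a1 rose from 192 and 197 FPKM with LA to 403 and 397 FPKM with LA+NTP, and its difference of 1.0 ± 0.06 became 0.44 ± 0.06. The last 2 were then under 1.5-fold, so that of the 13 tested subunits of complex IV 4 were raised as fitted (30.8%, against 11.7% of all genes) and 1 without the trend. Uqcr10, a small subunit of complex III, rose from 65.5 and 64 FPKM with LA to 143 and 179 FPKM with LA+NTP, a difference of 1.28 ± 0.11 and of 0.93 ± 0.11 without the trend. In complexes II and III 2 of 14 subunits were raised in each fit (14.3%), with Uqcr10 in both. Over all genes 11.7% were raised as fitted and 3.69% without the trend. Of the 16 ATP synthase genes 4 were raised as fitted (25%) and 3 without the trend, and these 3 encode the c subunit of the membrane ring. Atp5g2 rose from 101 and 100 FPKM with LA to 223 and 266 FPKM with LA+NTP, a difference of 1.25 ± 0.08 and of 0.83 ± 0.09 without the trend. Atp5g3 rose from 161 and 140.1 FPKM with LA to 263 and 281 FPKM with LA+NTP, a difference of 0.81 ± 0.10 and of 0.79 ± 0.10. Atp5g1 rose from 43.5 and 40.3 FPKM with LA to 85.1 and 82.6 FPKM with LA+NTP, a difference of 0.96 ± 0.08 and of 0.86 ± 0.08. Pseudogene copies hold 29.9% of the 31-base words of Cox7c and 19.6% of those of Atp5g2. Raised subunits of complexes II and III numbered 1 without LA replicate 2 or LA+NTP replicate 2.

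Complex I, the NADH dehydrogenase, showed no common direction. Of 36 subunits tested, 4 were raised (11.1%) and 2 lowered (5.56%), against 11.7% and 7.57% of all genes. Without the trend none was raised and 1 lowered. That one was Ndufa12, which measured 210.0 and 197 FPKM in the LA libraries and 108 and 107 FPKM in the LA+NTP libraries, a difference of -0.96 ± 0.10 (edgeR adjusted p = 2.0e-06) and of -1.01 ± 0.10 without the trend. Ndufa7 rose from 85.5 and 71.3 FPKM with LA to 139 and 149 FPKM with LA+NTP, a difference of 0.83 ± 0.09 that was 0.50 ± 0.09 and not called without the trend. The median over the 36 subunits was 0.16 as fitted and -0.02 without the trend, against 0.01 over all genes as fitted, so its sign depended on the trend. For complex IV the 2 medians were 0.15 and 0.40, and for ATP synthase 0.20 and 0.06. Among 78 mitochondrial ribosomal proteins 13 were raised (16.7%) and 3 lowered (3.85%), against 11.7% and 7.57% of all genes. Without the trend 4 were raised and 1 lowered. Mrpl52 rose from 104 and 97.3 FPKM with LA to 195 and 205 FPKM with LA+NTP, and its difference of 0.95 ± 0.09 became 0.52 ± 0.10. Mrpl57 rose from 4.5 and 4.31 FPKM with LA to 8 and 8.28 FPKM with LA+NTP, a difference of 0.85 ± 0.10 that was larger, at 1.27 ± 0.10, without the trend. Genes of the mitochondrial genome were not analysed here. Lowered complex I subunits numbered 1 without LA replicate 2 or LA+NTP replicate 2. Lowered mitochondrial ribosomal proteins numbered 1 without LA+NTP replicate 2.

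Regulators of mitochondrial biogenesis gave 4 raised (22.2%) and 1 lowered (5.56%) of 18, against 11.7% and 7.57% of all genes. Ppargc1b measured 0.49 and 0.65 FPKM in the LA libraries and 1.22 and 1.37 FPKM in the LA+NTP libraries, a difference of 1.17 ± 0.20 (edgeR adjusted p = 2.1e-04), and kept its call without the trend at 0.67 ± 0.20, the one member of the list to do so. Esrra, the nuclear receptor ERRα that PGC-1 proteins coactivate, rose from 6.67 and 7.46 FPKM with LA to 12.3 and 12.9 FPKM with LA+NTP, and its difference of 0.80 ± 0.10 became 0.08 ± 0.10. Pprc1, a relative of PGC-1, rose from 11.3 and 12.1 FPKM with LA to 18.3 and 19.3 FPKM with LA+NTP, and its difference of 0.64 ± 0.07 became 0.28 ± 0.07. Ppargc1a and Tfam were not called. Ppargc1a measured 1.44 and 1.32 FPKM in the LA libraries and 1 and 1.17 FPKM in the LA+NTP libraries, a difference of -0.38 ± 0.13. Tfam, the packaging factor of mitochondrial DNA, measured 13.5 and 12.9 FPKM in the LA libraries and 9.19 and 8.97 FPKM in the LA+NTP libraries, a difference of -0.58 ± 0.08 that stayed under 1.5-fold. None of the 9 tested genes of AMPK and its upstream kinases was called in either fit. Prkaa1, a catalytic subunit, measured 16.3 and 16.7 FPKM in the LA libraries and 14.3 and 13.8 FPKM in the LA+NTP libraries, a difference of -0.27 ± 0.08 and of 0.25 ± 0.08 without the trend. Prkaa2, the other catalytic subunit, measured 15.6 and 15.4 FPKM in the LA libraries and 10.8 and 12.3 FPKM in the LA+NTP libraries, a difference of -0.47 ± 0.08 and of 0.03 ± 0.08. Both transcripts are poor in GC, at 40.1% and 40.7%, and neither difference stayed negative without the trend. Lowered biogenesis regulators numbered 2 without LA replicate 2, LA+NTP replicate 1, LA+NTP replicate 2, PA+NTP replicate 1 or PA+NTP replicate 2.

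In base excision repair, Ogg1, the glycosylase that removes 8-oxoguanine, measured 5.12 and 5.02 FPKM in the LA libraries and 11.2 and 12.8 FPKM in the LA+NTP libraries, a difference of 1.21 ± 0.12 (edgeR adjusted p = 2.5e-06) and of 0.92 ± 0.12 without the trend. Both LA+NTP libraries held over 2 times the LA level, and exons of Ogg1 overlap Camk1 on the other strand. Neil2, another glycosylase, fell from 1.65 and 1.5 FPKM with LA to 1.08 and 0.95 FPKM with LA+NTP, a difference of -0.69 ± 0.20 and of -0.85 ± 0.20 without the trend. The remaining members of this list of 19 were not called as fitted. Genes of mitochondrial fusion, fission and mitophagy gave 3 lowered of 17 as fitted (17.6%, against 7.57% of all genes), Yme1l1 among the 3. None of the 17 was called without the trend. In the tricarboxylic acid cycle 2 of 18 genes were lowered as fitted (11.1%) and none without the trend. Dld, the shared dehydrogenase subunit of pyruvate and oxoglutarate dehydrogenase, fell from 82.6 and 78.2 FPKM with LA to 46.3 and 44.7 FPKM with LA+NTP, and its difference of -0.86 ± 0.06 became -0.36 ± 0.06. Sucla2, a succinyl-CoA synthetase subunit, fell from 62.8 and 64.5 FPKM with LA to 39.7 and 38.9 FPKM with LA+NTP, and its difference of -0.74 ± 0.06 became -0.35 ± 0.06. Raised genes of base excision repair numbered 3 without LA replicate 1. Lowered genes of base excision repair numbered 0 without LA replicate 1 or LA+NTP replicate 2. Lowered genes of mitochondrial dynamics numbered 2 without LA replicate 2, LA+NTP replicate 1, Vehicle replicate 1 or Vehicle replicate 2. Of the genes given here with values, those that lost their call, with the log2 difference left, were Neil2 (-0.62) without LA replicate 1 and Neil2 (-0.60) without LA+NTP replicate 2.

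Few enzymes of fatty acid oxidation were called. Of 26 tested genes 1 was raised and 1 lowered (3.85% each), and none was called without the trend. Etfa, which takes electrons from acyl-CoA dehydrogenases, fell from 147 and 141 FPKM with LA to 83.6 and 78.7 FPKM with LA+NTP, a difference of -0.87 ± 0.06 that became -0.58 ± 0.07. Of 20 PPARα target genes the 1 called (5%) was Ucp2, an uncoupling protein of the inner membrane. It measured 0.39 and 0.56 FPKM in the LA libraries and 1.16 and 1.56 FPKM in the LA+NTP libraries, a difference of 1.52 ± 0.24 and of 1.2 ± 0.24 without the trend. Raised genes of fatty acid oxidation numbered 0 without LA+NTP replicate 1. Lowered genes of fatty acid oxidation numbered 2 without LA replicate 1 or LA+NTP replicate 2.

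Genes of fat synthesis gave 6 raised of 21 (28.6%, against 11.7% of all genes) with none lowered, and 1 was raised without the trend. That one was Fads2, the Δ6 desaturase that acts on LA, which measured 53.7 and 58.4 FPKM in the LA libraries and 109 and 109 FPKM in the LA+NTP libraries, a difference of 0.92 ± 0.08 (edgeR adjusted p = 5.4e-07) and of 0.64 ± 0.07 without the trend. Vehicle stood between the groups for Fads2, at 73.2 and 79.5 FPKM. Fasn, fatty acid synthase, rose from 6.38 and 6.47 FPKM with LA to 12 and 11.7 FPKM with LA+NTP, and its difference of 0.85 ± 0.06 became 0.35 ± 0.06. Mlxipl, the carbohydrate-sensing factor ChREBP, rose from 19.6 and 18.7 FPKM with LA to 35.9 and 38.8 FPKM with LA+NTP, and its difference of 0.92 ± 0.08 became 0.51 ± 0.08. Among lipid droplet proteins and lipases 3 of 17 were raised as fitted (17.6%, against 11.7% of all genes) and none without the trend. Pnpla2, the triglyceride lipase ATGL, rose from 19.7 and 19.7 FPKM with LA to 36 and 36.7 FPKM with LA+NTP, and its difference of 0.84 ± 0.06 became 0.35 ± 0.06. The median of this list changed sign, from 0.21 to -0.10.

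Of 18 genes for fatty acid uptake and activation, 3 were lowered as fitted (16.7%, against 7.57% of all genes). Without the trend 1 was raised. Cd36, the fatty acid translocase, fell from 40.5 and 39.3 FPKM with LA to 25.6 and 25.6 FPKM with LA+NTP, and its difference of -0.69 ± 0.06 became -0.08 ± 0.05. Acsl4, which activates polyunsaturated fatty acids, fell from 64 and 60.1 FPKM with LA to 38.6 and 38.9 FPKM with LA+NTP, and its difference of -0.72 ± 0.06 became -0.14 ± 0.06. Both transcripts are poor in GC, at 38.4% and 39%. The gene raised without the trend was Fabp5, a fatty acid binding protein, which measured 17.4 and 16.9 FPKM in the LA libraries and 22.6 and 22.7 FPKM in the LA+NTP libraries, a difference of 0.62 ± 0.08 without the trend and of 0.36 ± 0.09 with it. Of 23 genes of cholesterol synthesis and its control 4 were raised as fitted (17.4%, against 11.7% of all genes) and 2 without the trend. Dhcr7, an enzyme of the last steps, was raised either way, from 13 and 11.9 FPKM with LA to 21.8 and 21.5 FPKM with LA+NTP, with 0.76 ± 0.07 and 0.59 ± 0.07.

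**Figure D4:**
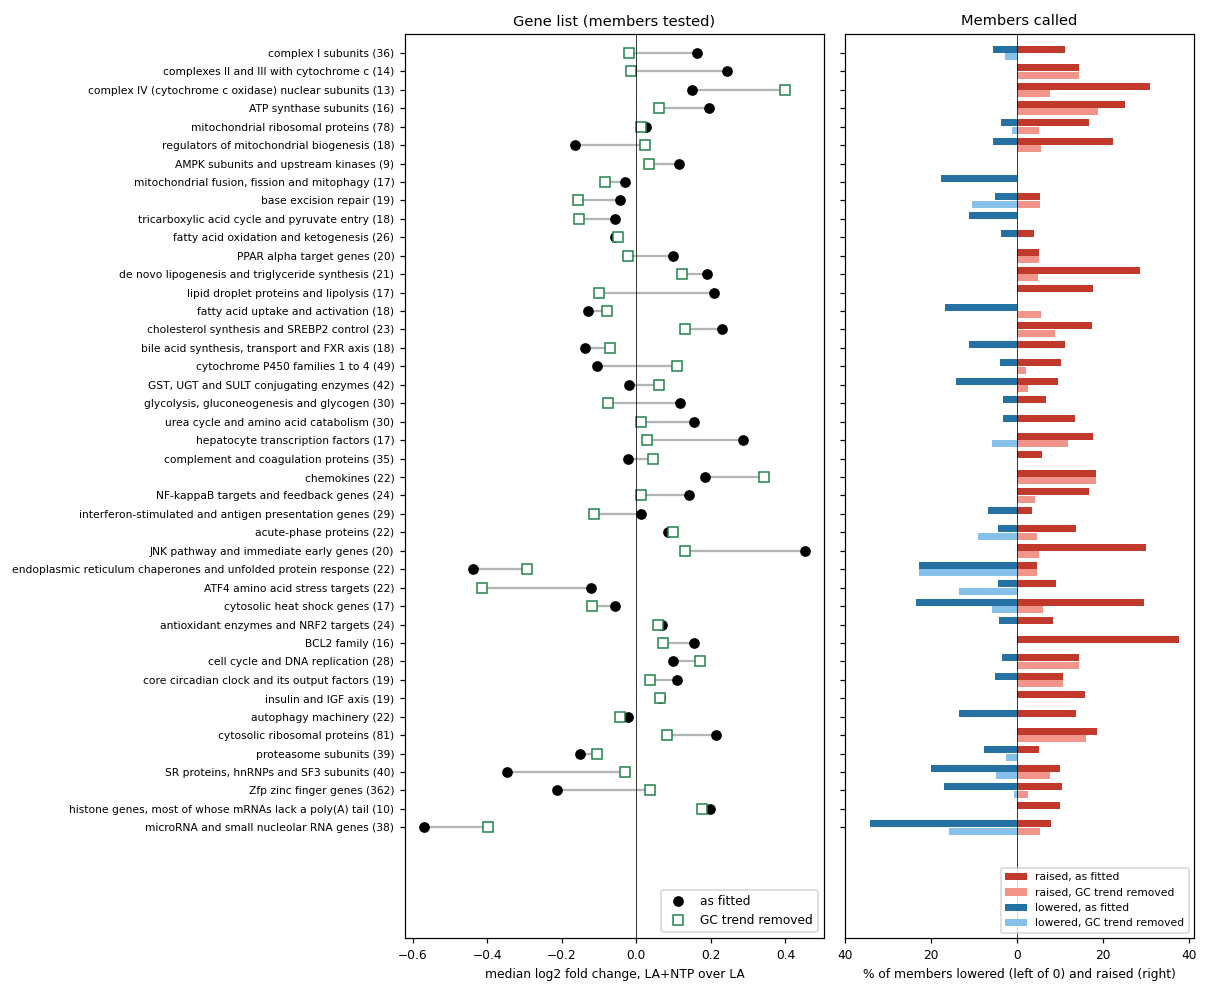
Left, median log2 fold change of LA+NTP over LA for each of 43 gene lists (rows, members tested in parentheses), as fitted (filled circles) and with the GC trend removed (open squares). Right, percent of members lowered (left of 0) and raised (right of 0) in each fit. Most bars shorten without the trend. Raised bars that keep their length include those of the chemokines, cell cycle, circadian clock, complexes II and III and the unfolded protein response. The lowered bar of the unfolded protein response keeps its length too. Lowered bars of ATF4 targets, base excision repair and acute-phase genes lengthen.

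In the lists of specialised liver functions most shares called lay near or under those of all genes, 11.7% raised and 7.57% lowered. The single genes below are therefore not read as a response of these lists. Of 49 cytochrome P450 genes of families 1 to 4, 5 were raised (10.2%) and 2 lowered (4.08%), and without the trend 1 was raised. That one was Cyp2d26, which rose from 6.16 and 4.55 FPKM with LA to 12.5 and 10.1 FPKM with LA+NTP, a difference of 1.02 ± 0.17 and of 0.78 ± 0.17 without the trend. Cyp3a13 fell from 52.8 and 48.1 FPKM with LA to 29 and 31.1 FPKM with LA+NTP, and its difference of -0.79 ± 0.07 became -0.36 ± 0.07. Of 42 conjugating enzymes 4 were raised (9.52%), all of them glutathione S-transferases of the mu class, and 6 lowered (14.3%), namely 4 UGT and 2 SULT genes. Gstm3, the one raised without the trend, rose from 138 and 125 FPKM with LA to 305 and 257 FPKM with LA+NTP, a difference of 1.05 ± 0.14 and of 0.86 ± 0.14 without the trend. Ugt2b5, a glucuronosyltransferase, fell from 221 and 212 FPKM with LA to 148 and 139 FPKM with LA+NTP, a difference of -0.63 ± 0.07 that became -0.10 ± 0.07. These are families of close copies, with 37.7% of the 31-base words of Gstm3 and 56.4% of those of Ugt2b5 found in other genes. Raised cytochrome P450 genes numbered 3 without LA replicate 2 or LA+NTP replicate 1. Lowered cytochrome P450 genes numbered 1 without LA replicate 1.

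In bile acid metabolism 2 of 18 genes were raised and 2 lowered as fitted (11.1% each) and none was called without the trend. Fgfr4, the receptor of the intestinal bile acid signal FGF15, rose from 4.65 and 4.66 FPKM with LA to 8.65 and 8.45 FPKM with LA+NTP, and its difference of 0.84 ± 0.14 became 0.29 ± 0.13. Cyp7b1, of the alternative synthesis pathway, fell from 17.8 and 18.1 FPKM with LA to 11.7 and 11.5 FPKM with LA+NTP, and its difference of -0.67 ± 0.08 became -0.25 ± 0.08. In glycolysis, gluconeogenesis and glycogen metabolism 2 of 30 genes were raised (6.67%) and 1 lowered (3.33%). In the urea cycle and amino acid catabolism 4 of 30 were raised (13.3%) and 1 lowered (3.33%). None was called without the trend in either list. Slc2a2, the hepatocyte glucose transporter GLUT2, fell from 4.94 and 5.71 FPKM with LA to 2.79 and 2.8 FPKM with LA+NTP, and its difference of -0.97 ± 0.14 became -0.51 ± 0.14. Tdo2, which opens the tryptophan ring, fell from 57.6 and 50.4 FPKM with LA to 32 and 24 FPKM with LA+NTP, and its difference of -1.0 ± 0.15 became -0.45 ± 0.16. Aldoa, a glycolytic aldolase with 34.2% of its 31-base words in copies, rose from 144 and 137 FPKM with LA to 238 and 231 FPKM with LA+NTP, and its difference of 0.69 ± 0.06 became 0.28 ± 0.06. Raised bile acid genes numbered 1 without LA replicate 1, LA replicate 2, LA+NTP replicate 1 or LA+NTP replicate 2. Lowered bile acid genes numbered 1 without LA replicate 1, LA replicate 2 or LA+NTP replicate 2. Raised genes of carbohydrate metabolism numbered 1 without LA+NTP replicate 2, PA+NTP replicate 1 or PA+NTP replicate 2. Lowered genes of the urea cycle and amino acid catabolism numbered 2 without LA replicate 2 or LA+NTP replicate 1.

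Among 17 hepatocyte transcription factors 3 were raised as fitted (17.6%), and without the trend 2 were raised and 1 lowered. Foxa3, a forkhead factor of the liver, rose from 13.1 and 13.1 FPKM with LA to 21 and 19.8 FPKM with LA+NTP, and its difference of 0.60 ± 0.10 became 0.32 ± 0.09. The gene lowered without the trend was Cebpb, a factor of liver development and the acute phase. It measured 12.5 and 11.2 FPKM in the LA libraries and 10.8 and 9.27 FPKM in the LA+NTP libraries, a difference of -0.29 ± 0.13 as fitted and of -1.28 ± 0.12 without the trend. Its GC content was 67.2%, and its FPKM values with NTP were only slightly under those without. Among the 43 genes of 65% GC and over, removal of the trend left a median of -0.16, with 7 lowered and 0 raised. Of 35 complement and coagulation genes 2 were raised as fitted (5.71%) and none without the trend. Serpinf2, the plasmin inhibitor, rose from 66.1 and 58.1 FPKM with LA to 110.2 and 96.8 FPKM with LA+NTP, and its difference of 0.69 ± 0.13 became 0.38 ± 0.13. Raised transcription factors numbered 1 without LA+NTP replicate 1. Raised complement and coagulation genes numbered 1 without LA+NTP replicate 1. Of the genes given here with values, those that lost their call, with the log2 difference left, were Foxa3 (0.56) without LA+NTP replicate 1 and Foxa3 (0.58) without PA+NTP replicate 1 and Foxa3 (0.58) without PA+NTP replicate 2.

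Of 22 chemokine genes 4 were raised in each fit (18.2% of the list) and none was lowered. Over all genes 11.7% were raised as fitted and 3.69% without the trend. The median over the list was 0.18 as fitted and 0.34 without the trend. Cxcl10, a CXCR3 ligand, measured 13.1 and 10.9 FPKM in the LA libraries and 21 and 19.1 FPKM in the LA+NTP libraries, a difference of 0.69 ± 0.17 and of 0.91 ± 0.17 without the trend. Vehicle lay between the groups for Cxcl10, at 15.4 and 14.7 FPKM. Cxcl11, another CXCR3 ligand, measured 0.53 and 1.31 FPKM in the LA libraries and 1.85 and 2.07 FPKM in the LA+NTP libraries, a difference of 1.12 ± 0.31 and of 1.55 ± 0.32. Ccl7, a monocyte chemoattractant, measured 1.56 and 1.61 FPKM in the LA libraries and 2.18 and 2.78 FPKM in the LA+NTP libraries, a difference of 0.62 ± 0.22 and of 1.02 ± 0.22. These 3 were raised in both fits, Ccl27a only as fitted and Ccl9 only without the trend. Exons of Cxcl10 overlap Art3 on the other strand. Raised chemokines numbered 1 without LA replicate 1 or LA replicate 2, and 2 without LA+NTP replicate 2. Of the genes given here with values, those that lost their call, with the log2 difference left, were Ccl7 (0.59) and Cxcl11 (0.55) without LA replicate 1 and Ccl7 (0.63) and Cxcl10 (0.56) without LA replicate 2 and Ccl7 (0.41) without LA+NTP replicate 2. The difference of Cxcl11 was 1.85 on the log2 scale without LA replicate 2.

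Of 24 NF-κB targets and feedback genes 4 were raised as fitted (16.7%, against 11.7% of all genes) and 1 without the trend. Rela, the p65 subunit of NF-κB, rose from 39.7 and 44.8 FPKM with LA to 74.1 and 77.4 FPKM with LA+NTP, and its difference of 0.80 ± 0.07 became 0.22 ± 0.07. The gene called both ways was Il1b, the inflammatory cytokine, with no count in either LA library and 5 and 18 counts in LA+NTP, too few to give a fold. Interferon-stimulated and antigen presentation genes gave 1 raised (3.45%) and 2 lowered (6.9%) of 29, and none without the trend. Of 22 acute-phase genes 3 were raised (13.6%) and 1 lowered (4.55%) as fitted, against 11.7% and 7.57% of all genes. Hamp, which encodes the iron hormone hepcidin, fell from 15.4 and 14 FPKM with LA to 6.65 and 8.92 FPKM with LA+NTP, a difference of -0.94 ± 0.23 and of -0.97 ± 0.23 without the trend. It shares 33.7% of its 31-base words with Hamp2. Serpina3n, a protease inhibitor, rose from 8.65 and 9.48 FPKM with LA to 16.4 and 14.7 FPKM with LA+NTP, a difference of 0.74 ± 0.15 and of 0.62 ± 0.15. Raised interferon and antigen presentation genes numbered 2 without LA+NTP replicate 2. Lowered interferon and antigen presentation genes numbered 1 without LA+NTP replicate 2, and 7 without LA+NTP replicate 1. Raised acute-phase genes numbered 1 without LA replicate 1. Lowered acute-phase genes numbered 2 without PA+NTP replicate 1 or PA+NTP replicate 2.

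Of 22 genes of the unfolded protein response 5 were lowered (22.7%, against 7.57% of all genes) and 1 raised, the same numbers as without the trend. The median was -0.44 as fitted and -0.29 without it. Hspa5, the chaperone BiP, measured 818 and 779 FPKM in the LA libraries and 459 and 459 FPKM in the LA+NTP libraries, a difference of -0.84 ± 0.06 (edgeR adjusted p = 1.4e-07) and of -0.67 ± 0.06 without the trend. For BiP the Vehicle values of 593 and 558 FPKM lay between those of LA and LA+NTP. Hsp90b1, the chaperone GRP94, fell from 483 and 487 FPKM with LA to 250.2 and 258 FPKM with LA+NTP, a difference of -0.97 ± 0.06 and of -0.62 ± 0.06. Manf, a secreted relative of Cdnf, fell from 64.6 and 65.5 FPKM with LA to 42 and 42.6 FPKM with LA+NTP, a difference of -0.66 ± 0.07 and of -0.72 ± 0.07. These 3 were lowered in both fits, while Pdia3 and Canx were lowered only as fitted, and Sdf2l1 and Creld2 only without the trend. Syvn1, the ubiquitin ligase of ER-associated degradation, rose from 11.3 and 10.8 FPKM with LA to 25.9 and 25.8 FPKM with LA+NTP, a difference of 1.15 ± 0.08 and of 0.67 ± 0.07. Exons of Syvn1 overlap Mrpl49 on the other strand. Of the genes given here with values, those that lost their call, with the log2 difference left, were Canx (-0.58) without LA+NTP replicate 1.

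Targets of ATF4, the factor of the amino acid response, had a median of -0.12 as fitted and -0.42 without the trend. Of 22 tested, 2 were raised (9.09%) and 1 lowered (4.55%) as fitted, and 3 were lowered without the trend. Trib3, a pseudokinase, measured 19 and 21.1 FPKM in the LA libraries and 18.8 and 18.2 FPKM in the LA+NTP libraries, a difference of -0.16 ± 0.07 as fitted and of -0.67 ± 0.08 without the trend. Phgdh, the first enzyme of serine synthesis, measured 36.8 and 35.4 FPKM in the LA libraries and 31.6 and 31.7 FPKM in the LA+NTP libraries, a difference of -0.23 ± 0.07 and of -0.68 ± 0.07. These 2 and Nupr1 were the 3 genes lowered without the trend, and none of the 3 was called as fitted. Gdf15, a stress-induced hormone, rose from 22 and 16.6 FPKM with LA to 41.1 and 35.1 FPKM with LA+NTP, and its difference of 0.93 ± 0.13 became 0.23 ± 0.12. Raised ATF4 targets numbered 1 without LA replicate 1. Lowered ATF4 targets numbered 0 without LA replicate 2.

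Heat shock genes were split, with 5 raised (29.4%) and 4 lowered (23.5%) of 17 as fitted and 1 each without the trend. Hsp90aa1, the inducible HSP90, fell from 690.3 and 683 FPKM with LA to 406 and 414 FPKM with LA+NTP, and its difference of -0.79 ± 0.06 became -0.43 ± 0.06. Hspd1, the mitochondrial chaperonin, fell from 428 and 425 FPKM with LA to 254 and 245 FPKM with LA+NTP, a difference of -0.81 ± 0.06 and, still called, of -0.62 ± 0.06 without the trend. Hspb1, a small heat shock protein, rose from 266 and 261 FPKM with LA to 423 and 458 FPKM with LA+NTP, and its difference of 0.70 ± 0.07 became 0.04 ± 0.08. These 3 genes have pseudogene copies, and 55.8 to 62.9% of their 31-base words occur elsewhere. Of 24 antioxidant and NRF2 target genes 2 were raised (8.33%) and 1 lowered (4.17%) as fitted, and none was called without the trend. Prdx1, a peroxiredoxin, fell from 1564 and 1474 FPKM with LA to 955 and 1005 FPKM with LA+NTP, and its difference of -0.67 ± 0.07 became -0.25 ± 0.07. Mt2, a metal-binding metallothionein, rose from 155 and 139.5 FPKM with LA to 278 and 268 FPKM with LA+NTP, and its difference of 0.85 ± 0.10 became 0.50 ± 0.10. Raised heat shock genes numbered 3 without LA replicate 1. Raised antioxidant genes numbered 1 without LA replicate 2.

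Of 20 genes of the JNK pathway and the immediate early response, 6 were raised as fitted (30%, against 11.7% of all genes) and 1 without the trend, and the median went from 0.45 to 0.13. Ier3, an early response gene, rose from 83.6 and 79.8 FPKM with LA to 140.5 and 148 FPKM with LA+NTP, and its difference of 0.78 ± 0.06 became 0.50 ± 0.06. The gene raised both ways was Fosb, of the AP-1 family, which measured 0.67 and 0.64 FPKM in the LA libraries and 1.3 and 1.57 FPKM in the LA+NTP libraries, a difference of 1.09 ± 0.21 and of 0.72 ± 0.21 without the trend. Jund, shown above by its sequence, was among the 6 and changed sign without the trend. Its transcript lies in the bin of 65% GC and over. The 43 genes of that bin had a median of -0.16 without the trend, so its sign is not read further. Of 16 genes of the BCL2 family, which sets the threshold of apoptosis, 6 were raised as fitted (37.5%) and none without the trend. Bak1, a pore-forming member, rose from 34.3 and 40.9 FPKM with LA to 62.8 and 65.6 FPKM with LA+NTP, and its difference of 0.73 ± 0.09 became 0.29 ± 0.09. Raised BCL2 family genes numbered 3 without LA+NTP replicate 1.

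Of 81 cytosolic ribosomal proteins 15 were raised as fitted (18.5%, against 11.7% of all genes) and 13 without the trend, with none lowered, and the median went from 0.21 to 0.08. Rpl36 measured 120.3 and 122 FPKM in the LA libraries and 562 and 551 FPKM in the LA+NTP libraries, a difference of 2.16 ± 0.08 (edgeR adjusted p = 4.5e-10) and of 1.49 ± 0.08 without the trend. Rps29 rose from 409 and 348 FPKM with LA to 895 and 1236 FPKM with LA+NTP, a difference of 1.45 ± 0.15 and of 1.26 ± 0.16. Rps12 rose from 976 and 987 FPKM with LA to 1847 and 1931 FPKM with LA+NTP, a difference of 0.90 ± 0.11 and of 0.71 ± 0.12. Most of the 81 were not called, so the rise was that of some members. Many have processed pseudogenes, and 32.4% of the 31-base words of Rps12 occur in other genes. Of 39 proteasome subunits 2 were raised (5.13%) and 3 lowered (7.69%) as fitted, and 1 was lowered without the trend. Raised proteasome subunits numbered 1 without LA+NTP replicate 1. Lowered proteasome subunits numbered 5 without LA replicate 1.

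Splicing factors gave 8 lowered of 40 as fitted (20%, against 7.57% of all genes) and 4 raised, and without the trend 2 and 3. Their median went from -0.35 to -0.03, with a median GC content of 45.2%. Srsf5, an SR protein, fell from 263 and 276 FPKM with LA to 164 and 166 FPKM with LA+NTP, and its difference of -0.74 ± 0.06 became -0.40 ± 0.06. Hnrnpa2b1, an RNA-binding protein, fell from 365 and 368 FPKM with LA to 255 and 231 FPKM with LA+NTP, and its difference of -0.72 ± 0.07 became -0.37 ± 0.07. Against them, 2 subunits of the SF3 complexes that bind the branch site rose in both fits. Sf3b4 rose from 20.5 and 20.4 FPKM with LA to 51.7 and 55.7 FPKM with LA+NTP, a difference of 1.35 ± 0.10 and of 0.96 ± 0.10 without the trend. Sf3a2 rose from 18 and 20.6 FPKM with LA to 49.9 and 52.7 FPKM with LA+NTP, a difference of 1.37 ± 0.10 and of 0.63 ± 0.10. A copy holds 55% of the 31-base words of Sf3b4.

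Markers of other cell types were low but not absent, and in bulk RNA fewer cells of a type and less RNA per cell cannot be told apart. The 14 listed markers of Kupffer cells and macrophages summed to 141 and 145 FPKM in LA and 198 and 211 FPKM in LA+NTP. Most of this came from Cd68, a lysosomal protein not limited to macrophages. Of the 12 tested, 2 were raised (16.7%, against 11.7% of all genes) and none lowered (median 0.32). Both raised genes encode chains of complement C1q, made by macrophages. C1qc rose from 0.47 and 0.32 FPKM with LA to 1.83 and 1.85 FPKM with LA+NTP, a difference of 2.13 ± 0.34 and of 1.66 ± 0.34 without the trend. C1qb rose from 0.44 and 0.73 FPKM with LA to 1.3 and 1.23 FPKM with LA+NTP, a difference of 1.09 ± 0.40 and of 0.63 ± 0.40. Adgre1, the defining F4/80 antigen, stayed at 0.34 to 0.45 FPKM, and Clec4f, of Kupffer cells, at 0.13 to 0.29. Of 11 sinusoidal endothelial markers 1 was raised and 1 lowered, of 11 stellate cell markers 2 were raised, and of 5 cholangiocyte markers none was called as fitted. Dnase1l3, an endothelial nuclease, fell from 0.81 and 0.63 FPKM with LA to 0.32 and 0.29 FPKM with LA+NTP, a difference of -1.3 ± 0.26 and of -1.21 ± 0.26 without the trend. No B cell marker passed the filter on counts. Of the 12 hepatocyte markers 3 were raised, among them Apoc3, an apolipoprotein of triglyceride-rich particles. It rose from 53.5 and 48.9 FPKM with LA to 117 and 111 FPKM with LA+NTP, a difference of 1.11 ± 0.14 and of 0.81 ± 0.14 without the trend. The part of these shifts in the other results was not tested. Raised macrophage markers numbered 1 without LA+NTP replicate 1 or LA+NTP replicate 2. Raised endothelial markers numbered 2 without LA replicate 2 or LA+NTP replicate 1. Raised stellate cell markers numbered 1 without LA replicate 1 or LA+NTP replicate 2. Of the genes given here with values, those that lost their call, with the log2 difference left, were C1qb (0.75) without LA replicate 1 and C1qb (1.05) without LA+NTP replicate 1 and C1qb (1.13) without LA+NTP replicate 2.

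With PA in place of LA, NTP raised 1232 genes (8.74%) and lowered 721 (5.11%), in 4 libraries that share none with the LA comparison. Raised under both were 947 genes, 57.4% of the LA list and 76.9% of the PA list. Lowered under both were 527, 49.4% and 73.1%. Without the trend 322 were raised under both, 61.9% and 57.2% of the lists, and 137 lowered, 48.4% and 47.4%. Of the 1651 genes raised under LA 1630 had a difference of the same sign under PA, and of the 1067 lowered 1039 did. These signs are from the fit with the GC trend, which ran the same way with both FFAs. Spearman's rho between the NTP effect and transcript GC content was 0.676 under LA and 0.574 under PA. The share of the same sign was not counted over all genes or without the trend, and its source was not tested. By list, 5 genes of the unfolded protein response were lowered and 1 raised under PA, as under LA. Under PA 3 genes of complex IV, 2 of ATP synthase, 3 of fat synthesis, 3 chemokines and 8 cytosolic ribosomal proteins were raised, against 4, 4, 6, 4 and 15 under LA.

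Single genes are given here side by side. Uqcr10 differed by 1.28 ± 0.11 under LA and by 1.08 ± 0.11 under PA. Ogg1 differed by 1.21 ± 0.12 under LA and by 1.0 ± 0.13 under PA. Hspa5 differed by -0.84 ± 0.06 under LA and by -0.81 ± 0.06 under PA. These 3 were called with both FFAs. Ppp1r2-ps3 differed by 3.81 ± 0.53 under LA, where it rests on few LA counts, and by 1.08 ± 0.44 under PA. Hamp differed by -0.94 ± 0.23 under LA and by -0.29 ± 0.24 under PA. Neither was called under PA. A test of the difference between the 2 effects called no gene with edgeR (smallest adjusted p = 0.17), although 1029 genes (7.3%) passed 0.05 before adjustment. In the same test 5 genes were called by DESeq2. No gene is therefore reported as responding to NTP with only 1 of the FFAs.

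**Figure D5:**
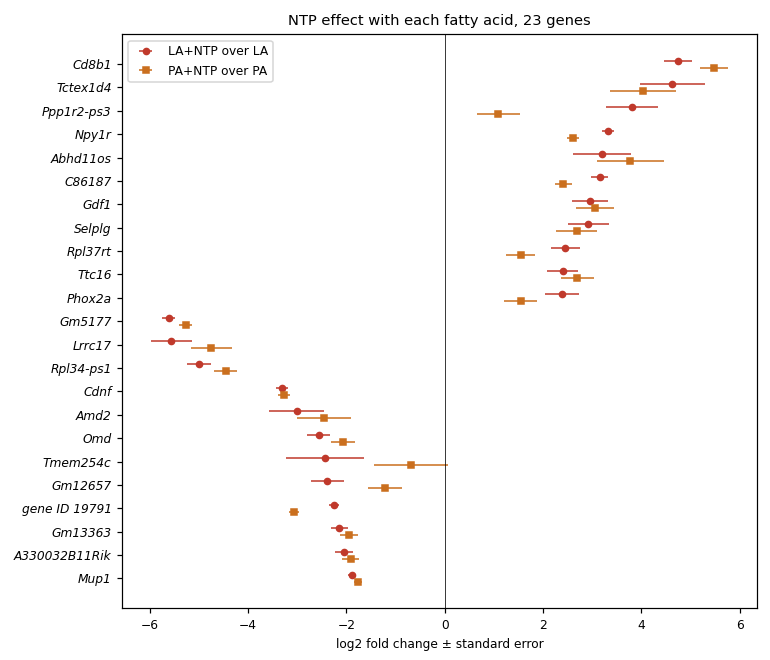
Log2 fold change with its standard error (x axis) of LA+NTP over LA (circles) and PA+NTP over PA (squares) for 11 of the 12 most raised genes and the 12 most lowered genes called with and without the GC trend. All 23 have the same sign with both fatty acids, with the PA effect closer to 0 for Ppp1r2-ps3 (1.08) and Tmem254c (-0.68). The share of the same sign over all genes was not counted.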

How the data were processed

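RNA of 10 libraries of cultured mouse hepatocytes was sequenced, 2 per group, with a strand setting not given in the sources used here. The authors aligned reads to mm10 with HISAT and Bowtie2 and deposited, per library and gene, an RSEM expected count and an FPKM value (called RPKM in their methods). Genes under 0.01 FPKM are not listed in a library and were set to 0. The files show totals of 13142588 to 60046937 expected counts per library.

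Counts were rounded and fitted over all 10 libraries with edgeR 4.0.16 (R 4.3.3) by group, with TMM factors of 0.977 to 1.037. The quasi-likelihood F test was adjusted by Benjamini-Hochberg over the 14097 genes that filterByExpr kept (3958 dropped; common biological coefficient of variation 0.0682). Genes with an adjusted p under 0.05 and a fold of at least 1.5 were called. SEs are the log2 fold change divided by the root of F. A second fit removed a loess trend (span 0.4) of each library on transcript GC content (GENCODE M21, 99.5% of genes). Of 18055 gene IDs, 17998 matched RefSeq by ID, 11 by accession and 46 not at all. Levels are the deposited FPKM. An exact permutation test of 2 against 2 libraries cannot go below 0.333. These 2 fits were tested on simulated data, as were DESeq2 and limma on log2(FPKM + 1), but not the other alternatives below.

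Alternatives were library-size scaling, DESeq2 1.42.0, limma 3.58.1 on log2(FPKM + 1) and log2(FPKM + 0.1), 2 other filters, a length trend, a replicate block, thinned counts, only the groups compared, no fold threshold, a NOISeq-type rule after the study's methods, and each library left out. Named genes are, per comparison, the 12 most raised and 12 most lowered genes called with and without the GC trend (mean of at least 1 FPKM), and leading members of each gene list; further list members were named after their values were seen. Members and lists were chosen with earlier results of these data known. Shared sequence was counted as exact words of 31 bases between transcripts. No 2 libraries were duplicates. The results of 3 genes are not reported here.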

Additional observations from a re-analysis of the deposited data

How the results depend on the processing

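Among the called named genes and the alternatives run, only Acads, Jund and Atf5 reversed, which they did without the GC trend, to -0.021, -0.26 and -0.019 on the log2 scale (with the replicate block as well, -0.020, -0.26 and -0.018); the cause was not tested. Of the 156 named genes called as fitted, 53 kept their call without the trend and 103 lost it. Counts of genes raised and lowered with NTP under LA were 520 and 283 without the GC trend and 3646 and 3611 with no fold threshold. They were 111 and 29 by the NOISeq rule at a probability of 0.95, with 569 lowered at 0.8 and 495 lowered by limma on log2(FPKM + 1). Raised calls were 60.7% of all calls, 68.5% with library-size scaling and 70.4% and 69.2% by limma with a pseudocount of 1 and 0.1. Under PA the counts were 563 and 289 without the GC trend, 3060 and 3246 with no fold threshold, 28 and 14 by the NOISeq rule at 0.95, 747 and 287 at 0.8, and 296 lowered by limma with a pseudocount of 1. Under both FFAs they were 322 and 137 without the trend, 2642 and 2830 with no fold threshold, 28 and 14 at 0.95, with 250 lowered at 0.8 and 231 by limma. Leaving out each library gave 1444 to 1645 raised and 1002 to 1171 lowered genes under LA, of which 1039 and 638 were called in all 10 of these fits, and 0 to 5 genes with different effects under LA and PA (5 without PA replicate 2). That difference, 0 genes in edgeR, called 5 with DESeq2, 41 with no filter on low counts, and 5 and 3 by limma.

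Replicate numbers were used only to name libraries, since nothing in the labels says that they mark pairs. The deviations of same-numbered LA and LA+NTP libraries correlated at 0.083. That single value cannot exclude a shared animal or preparation. A replicate block gave 1665 raised and 1074 lowered genes under LA and 1 gene in the test of the difference. With the block and the GC trend removed together the counts were 531 and 290.0 under LA, 583 and 305 under PA, 328 and 145 under both FFAs, and 2 in the test of the difference. Only 2 libraries a group, a 2.53-fold range of totals among the 4 libraries and low counts limit the precision for genes under about 1 FPKM.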

Other observations

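Cell cycle genes were raised at the same number in both fits, 4 of 28 (14.3%), with 1 lowered as fitted and none without the GC trend. Over all genes 11.7% were raised as fitted and 3.69% without the trend. Mcm5, a subunit of the replicative helicase, rose from 2.79 and 2.37 FPKM with LA to 4.58 and 4.88 FPKM with LA+NTP, a difference of 0.83 ± 0.11 and 0.71 ± 0.11 without the trend. Aurka, a mitotic kinase, rose from 0.83 and 1.33 FPKM with LA to 2.23 and 1.99 FPKM with LA+NTP, a difference of 0.94 ± 0.24 and of 0.86 ± 0.24. Ccnb1, cyclin B1, had counts of 12, 3, 50 and 50 in the 2 LA and 2 LA+NTP libraries. The levels were low in both groups. In the circadian clock 2 of 19 genes were raised (10.5%) and 1 lowered (5.26%), and without the trend 2 were raised. Per1, a repressor of the clock, measured 2.23 and 2.74 FPKM in the LA libraries and 6.4 and 7 FPKM in the LA+NTP libraries, a difference of 1.4 ± 0.12 and 0.81 ± 0.12. Nr1d2, the repressor REV-ERBβ, fell from 42.8 and 39.4 FPKM with LA to 23.8 and 22.5 FPKM with LA+NTP, and its difference of -0.87 ± 0.06 became -0.42 ± 0.06. Its relative Nr1d1 rose from 2.98 and 3.45 FPKM with LA to 5.79 and 6.06 FPKM with LA+NTP, and its difference of 0.85 ± 0.13 became 0.42 ± 0.14. Raised cell cycle genes numbered 2 without LA replicate 2. Lowered cell cycle genes numbered 0 without LA+NTP replicate 1, and 2 without LA replicate 1, and 3 without LA+NTP replicate 2. Of the genes given here with values, those that lost their call, with the log2 difference left, were Aurka (0.62) without LA replicate 1 and Ccnb1 (1.5) without LA replicate 2. The difference of Ccnb1 was 3.02 on the log2 scale without LA replicate 1.

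Of 22 autophagy genes 3 were raised and 3 lowered (13.6% each), and of 19 genes of the insulin and IGF axis 3 were raised (15.8%). Over all genes 11.7% were raised and 7.57% lowered. None of these list members was called without the trend. Ulk1, the kinase that starts autophagy, rose from 7.86 and 8.43 FPKM with LA to 15.2 and 15.5 FPKM with LA+NTP, and its difference of 0.87 ± 0.08 became 0.37 ± 0.07. Gabarapl2, which is joined to the autophagosome membrane, fell from 92.6 and 92.4 FPKM with LA to 59.6 and 55.8 FPKM with LA+NTP, and its difference of -0.72 ± 0.07 became -0.45 ± 0.07. Foxo3, a transcription factor held back by insulin signalling, rose from 6.21 and 6.62 FPKM with LA to 11 and 10.9 FPKM with LA+NTP, a difference of 0.74 ± 0.10 that became 0.06 ± 0.10.

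The 362 zinc finger genes named Zfp gave 38 raised (10.5%) and 62 lowered (17.1%) as fitted, against 11.7% and 7.57% of all genes. Without the trend 9 were raised and 3 lowered, and the median of the list changed sign from -0.21 to 0.04. Zfp36l1, which binds AU-rich elements and speeds mRNA decay, was raised either way from 172 and 168 FPKM with LA to 273 and 304 FPKM with LA+NTP, a difference of 0.73 ± 0.07 and 0.79 ± 0.07. Of 38 microRNA and small nucleolar RNA genes 3 were raised (7.89%) and 13 lowered (34.2%) as fitted, and 2 and 6 without the trend. Their counts come from libraries of long RNA. Mir3064, within an exon of Ddx5, fell from 49.8 and 51.6 FPKM with LA to 16.1 and 19.8 FPKM with LA+NTP, a difference of -1.51 ± 0.35, and reads of the host cannot be separated from it. Of 10 tested histone genes 1 was raised as fitted (10%) and none without the trend.
 Raised small RNA genes numbered 1 without LA replicate 2 or LA+NTP replicate 1. Lowered small RNA genes numbered 6 without LA+NTP replicate 2, and 8 without LA replicate 1.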
